A study of Homo sapiens with 12 samples.

Results

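Respiratory complex I was followed at the RNA level through the genes for its nuclear-encoded subunits and for the assembly factors that carry the NDUFAF name. The genes were chosen by symbol alone, as every row whose symbol is NDUFA, NDUFB, NDUFC, NDUFS, NDUFV, NDUFAB or NDUFAF followed by a number. This gave 46 genes of the 58671 gene rows in the table, made up of 38 subunit symbols and 8 NDUFAF symbols. Of these, 42 reached 1 FPKM in at least 1 group and were analysed, namely 34 subunits and all 8 NDUFAF genes. FPKM is the number of sequenced fragments scaled to transcript length and to library size, a level per length.

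The cells were A549, a human lung carcinoma line. The groups were RNase L knockout (RLKO) cells with and without poly(I:C), and parental (WT) cells with and without poly(I:C), with 3 samples in each of the 4 groups. RNase L is an endoribonuclease that cuts single-stranded RNA once double-stranded RNA has been sensed, and poly(I:C) is a synthetic double-stranded RNA. It was transfected at 500 ng/ml and RNA was taken 6 h later, while the untreated groups received none, and the sources used here do not give whether the RLKO line is a single clone. The deposited table held 1 pooled FPKM per group and no value of a single sample, so the levels below carry no spread between samples, and their read depth is unknown. Statistical support came only from the authors' own test, made separately in RLKO and in WT, of treated against untreated cells. A gene is said to fall only where its q-value was under 0.05, and differences between genotypes or between gene groups are descriptions without a test.

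Complex I is the entry point of the mitochondrial respiratory chain: it oxidises NADH, passes the electrons along a row of iron-sulfur clusters to ubiquinone, and pumps protons across the inner membrane. Its matrix arm holds the N module, where NADH is oxidised, and the Q module, where ubiquinone is reduced, and its membrane arm holds the proton pumps. The conserved core subunits do the catalysis, the accessory subunits surround and stabilise them, and the assembly factors help to build the enzyme without remaining in it.

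Coding sequence is shown for 4 members because RNase L prefers to cut after UU and UA dinucleotides. NDUFS4 (chr5:53560633-53683340, plus strand) had the lowest and NDUFV3 (chr21:42879644-42913304, plus strand) the highest change in WT. NDUFB7 (chr19:14566078-14572062, minus strand) and NDUFAB1 (chr16:23581002-23596356, minus strand) had the lowest and the highest share of UU and UA among the members that fell in WT. The intervals are GRCh38 coordinates of the whole genes. The letters are the first 90 bases of the longest principal coding sequence in GENCODE release 29, 5′ to 3′, with each TT or TA in capitals.
NDUFS4: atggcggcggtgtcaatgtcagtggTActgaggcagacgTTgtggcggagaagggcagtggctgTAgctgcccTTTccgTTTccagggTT
NDUFV3: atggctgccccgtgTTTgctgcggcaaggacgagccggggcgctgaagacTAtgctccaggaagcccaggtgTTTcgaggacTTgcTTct
NDUFB7: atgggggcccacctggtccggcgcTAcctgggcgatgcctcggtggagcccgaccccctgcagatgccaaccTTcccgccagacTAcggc
NDUFAB1: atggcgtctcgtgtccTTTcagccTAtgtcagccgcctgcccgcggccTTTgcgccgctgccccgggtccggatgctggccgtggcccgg
Over the whole coding sequence, UU and UA made up 10.5% of the dinucleotides in NDUFS4, 7.12% in NDUFV3, 2.93% in NDUFB7 and 12.6% in NDUFAB1. The stretches shown hold 8, 7, 3 and 5 such dinucleotides in the same order. NDUFB7 and NDUFAB1 were picked as the extremes of this share, so they show only its range among the members that fell. A link between this share and the change was not tested.

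Of 5 epithelial markers, KRT8 had 318 to 944 FPKM and KRT18 256 to 749.8 FPKM over the 4 groups, while KRT19 was at 6.64 to 54.0, CDH1 at 2.93 to 4.52 and EPCAM at 0.558 to 1.03 FPKM. PTPRC, CD3E and PECAM1, which mark blood and endothelial cells, were at or near 0, and COL1A1, a fibroblast gene, was at 2.06 to 7.17 FPKM. Spike-in RNA took a larger share in treated than in untreated cells, by 1.13 times in RLKO and 1.53 times in WT. All log2 changes below are therefore on the spike-in scale, taken after a pseudocount of 1 FPKM, which understates the change of low genes. On that scale the median change of the 12181 protein-coding genes was -0.24 in RLKO and -0.70 in WT. The authors' p-values and q-values were deposited beside the unscaled FPKM and were not recomputed on the spike-in scale. A q-value given with a change below therefore belongs to the authors' comparison and does not test the size of that change.

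In RLKO, poly(I:C) left no complex I gene past the threshold in the authors' deposited table, whereas in WT 13 of 42 fell. The table as a whole called 0.0246% of protein-coding genes lower in RLKO and 3.09% lower in WT. None of the 42 was called higher in either genotype, where the background was 0.821% in RLKO and 4.27% in WT. At an unadjusted p under 0.05 the authors' deposited table had 5 of 42 lower in RLKO, against 1.86% of all protein-coding genes, and 25 of 42 lower in WT, against 12.1%. The 5 in RLKO were NDUFA8, NDUFB1, NDUFS5, NDUFS4 and NDUFB7, and each of them also fell in WT.

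The median log2 change of the 42 genes was -0.84 in RLKO, with a range of -1.43 to -0.15. In WT the median was -2.52 and the range -3.44 to -1.03. All 42 values lay below 0 in both genotypes on the spike-in scale; with median-ratio scaling, which puts the median of all genes near 0, 39 of 42 did in RLKO, the exceptions being NDUFV1, NDUFS7 and NDUFAF6, and 42 of 42 in WT. In RLKO 15 of 42 were below -1, as were 5.34% of protein-coding genes, and in WT all 42 were, as were 37.0% of protein-coding genes. In WT 28 of 42 were below -2, against 9.72% of protein-coding genes, and none was in RLKO. Set against untreated cells, the median transcript was at 54.5% in treated RLKO cells and at 17.0% in treated WT cells on the spike-in scale. These shares depended on the scaling: they were 61.7% in RLKO and 26.1% in WT for FPKM as deposited, and 67.4% in RLKO and 30.2% in WT with median-ratio scaling. With FPKM as deposited 9 of 42 were below -1 in RLKO and 35 of 42 in WT. In FPKM as deposited, 41 of 42 were lower in treated than in untreated RLKO cells and 42 of 42 were lower in WT, so in WT the direction was the same without the spike-in scaling. The exception in RLKO was NDUFV1. In bulk RNA of this kind, fewer cells and less RNA per cell cannot be told apart.

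**Figure D1:**
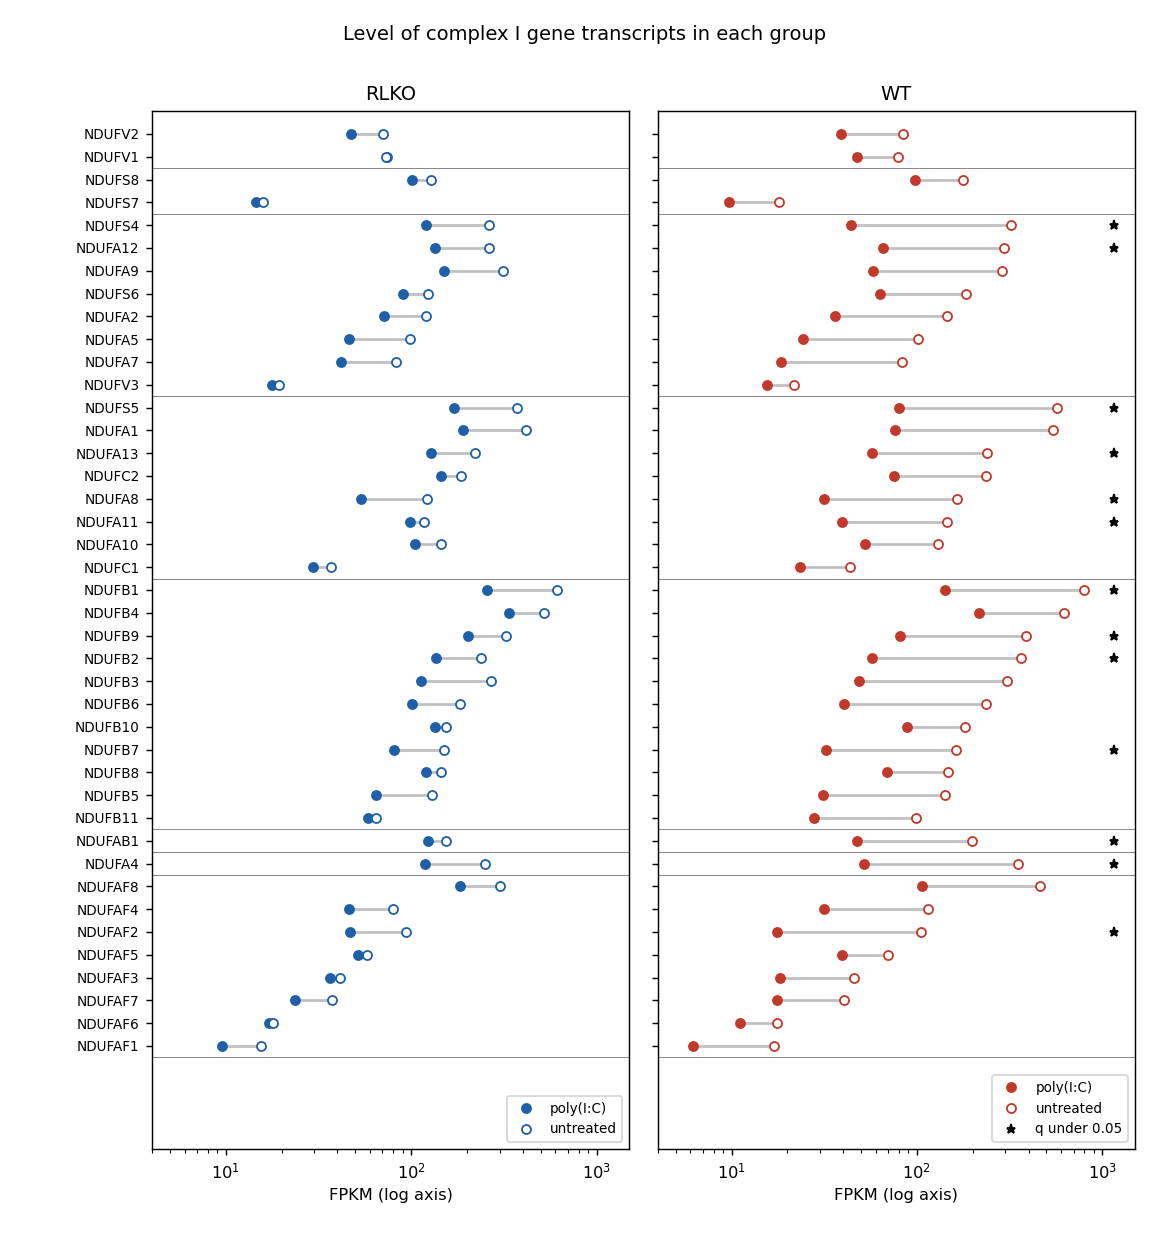
FPKM (log axis) of 41 of the 42 analysed complex I genes in RLKO cells (left) and WT cells (right), with filled points for poly(I:C), open points for untreated cells and 1 pooled value per point. Horizontal rules separate, from the top, core N module, core Q module, accessory matrix arm, accessory proximal and distal membrane arm, NDUFAB1, NDUFA4 and the NDUFAF genes; stars mark the 13 genes with a q-value under 0.05 in WT. The gap between the points is wider in WT than in RLKO for every gene drawn.

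The 7 core subunits encoded in the nucleus sit in the matrix arm, and 5 of them could be measured, of which 4 are described one by one. None of these 5 passed the threshold in either genotype, where 0.0246% of protein-coding genes were called lower in RLKO and 3.09% in WT. The median change of these 5 subunits was -0.51 in RLKO and -1.46 in WT. NDUFV1 (chr11:67605653-67612554), which binds FMN and oxidises NADH, had 74.2 FPKM in treated and 73.1 FPKM in untreated RLKO cells, and 47.6 FPKM in treated and 79.4 FPKM in untreated WT cells. Its change was -0.15 in RLKO, the highest of all 42 there, and -1.33 in WT. NDUFV2, its iron-sulfur partner in the N module, had 47.2 FPKM in treated and 70.5 FPKM in untreated RLKO cells, and 38.8 FPKM in treated and 84.6 FPKM in untreated WT cells. The levels of these N module partners before treatment were alike, and the change of NDUFV2 was -0.74 in RLKO and -1.71 in WT.

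NDUFS7, which carries the last iron-sulfur cluster before ubiquinone, was the least abundant subunit of the 34 before treatment, with 14.6 FPKM in treated and 15.8 FPKM in untreated RLKO cells, and 9.66 FPKM in treated and 18.1 FPKM in untreated WT cells. Its change was -0.28 in RLKO and -1.41 in WT, both among the 5 highest. NDUFS8, a further iron-sulfur subunit, had 101 FPKM in treated and 129 FPKM in untreated RLKO cells, and 98.2 FPKM in treated and 178 FPKM in untreated WT cells. It was the most abundant measured core subunit in all 4 groups, yet its change was -0.51 in RLKO and -1.46 in WT. The ratio of its levels in treated RLKO and treated WT cells was the one nearest to 1 among the 42.

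Accessory subunits of the matrix arm had a median change of -1.14 in RLKO and -2.65 in WT over 8 genes, and 2 of the 8 fell in WT. NDUFS4, an accessory subunit at the N module whose loss causes Leigh syndrome, had 120.0 FPKM in treated and 263 FPKM in untreated RLKO cells, and 44.1 FPKM in treated and 321 FPKM in untreated WT cells. It fell by 3.44 on the log2 scale in WT, the lowest of all 42, and its change in RLKO was -1.30. For FPKM as deposited, without a pseudocount, its log2 ratio in WT was -2.87, with q = 0.0451 in the authors' deposited table. Treated WT cells held 8.97% of the untreated level on the spike-in scale, and 0.394% of protein-coding genes were at or below the change of NDUFS4. NDUFA12, which sits at the junction of the N and Q modules, had 134 FPKM in treated and 262 FPKM in untreated RLKO cells, and 65.8 FPKM in treated and 294 FPKM in untreated WT cells. NDUFA12 fell by 2.75 in WT with q = 0.0154 in the authors' deposited table.

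The other 6 matrix-arm accessory genes did not pass the threshold. NDUFV3, a small N module subunit, stood apart with 17.7 FPKM in treated and 19.4 FPKM in untreated RLKO cells, and 15.6 FPKM in treated and 21.6 FPKM in untreated WT cells. Its change of -0.29 in RLKO and -1.03 in WT was the highest of all 42 in WT, and 35.8% of protein-coding genes were at or below that value. NDUFA2, NDUFA5, NDUFA7, NDUFA9 and NDUFS6 lay between -1.25 and -0.62 in RLKO and between -2.90 and -2.14 in WT. Before treatment these 5 ran from 82.3 to 312 FPKM in RLKO and from 82.9 to 288 FPKM in WT. NDUFA9 helps to join the arms near the ubiquinone site, and NDUFS6 binds zinc.

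Proximal membrane-arm accessory subunits had a median change of -0.79 in RLKO and -2.56 in WT over 8 genes, of which 4 fell in WT. NDUFS5, a small protein on the intermembrane-space face, had 169 FPKM in treated and 372 FPKM in untreated RLKO cells, and 80.2 FPKM in treated and 573 FPKM in untreated WT cells. It fell by 3.43 in WT, with q = 0.0145 in the authors' deposited table, and its change in RLKO was -1.31. NDUFA8, a cysteine-rich protein of the same face, had 53.9 FPKM in treated and 122 FPKM in untreated RLKO cells, and 31.5 FPKM in treated and 165 FPKM in untreated WT cells. NDUFA8 fell by 2.95 in WT with q = 0.0468 in the authors' deposited table; in RLKO its change was -1.34 with an unadjusted p of 0.0125, the smallest of the 42 in that genotype, and a q of 0.765. NDUFS5 and NDUFA8 were therefore among the lowest changes in RLKO as well, while NDUFB7, on the same face, was at -1.06 there.

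NDUFA13, also known as GRIM-19 and linked to cell death signalling, had 128 FPKM in treated and 220.2 FPKM in untreated RLKO cells, and 57.4 FPKM in treated and 239 FPKM in untreated WT cells. It fell by 2.65 in WT, with q = 0.0451 in the authors' deposited table. NDUFA11, a membrane subunit that touches complex III in supercomplexes, had 98.2 FPKM in treated and 117 FPKM in untreated RLKO cells, and 39.3 FPKM in treated and 145 FPKM in untreated WT cells. NDUFA11 fell by 2.46 in WT with q = 0.00657 in the authors' deposited table, the smallest drop among the 13. In RLKO its change was -0.43. The 13 that fell were thus not simply the 13 lowest changes: NDUFA1, a subunit encoded on the X chromosome, had a change of -3.43 in WT, the third lowest of the 42, with q = 0.0775 in the authors' deposited table. NDUFA1 had 189 FPKM in treated and 414 FPKM in untreated RLKO cells, and 76.3 FPKM in treated and 545 FPKM in untreated WT cells. Its change in RLKO was -1.30. NDUFC2, NDUFA10 and NDUFC1 did not pass, with changes of -2.25, -1.90 and -1.46 in WT.

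Distal membrane-arm subunits are the 11 NDUFB genes, all of which were measured. Their median change was -0.99 in RLKO and -2.84 in WT, and 4 of the 11 fell in WT. NDUFB1, a small single-span protein, was the most abundant of all 42 before treatment, with 256 FPKM in treated and 610.0 FPKM in untreated RLKO cells, and 142 FPKM in treated and 796 FPKM in untreated WT cells. It fell by 3.09 in WT, with q = 0.0145 in the authors' deposited table, and its change of -1.43 was the lowest of the 42 in RLKO. NDUFB2, another single-span protein, had 135 FPKM in treated and 239 FPKM in untreated RLKO cells, and 57.5 FPKM in treated and 366 FPKM in untreated WT cells. NDUFB2 fell by 3.26 in WT with q = 0.0300 in the authors' deposited table, and at -2.26 had the widest gap between the WT and the RLKO change.

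NDUFB7, a cysteine-rich subunit on the intermembrane-space face, had 81.0 FPKM in treated and 150.4 FPKM in untreated RLKO cells, and 32.4 FPKM in treated and 163 FPKM in untreated WT cells. It fell by 2.89 in WT with q = 0.00180, the smallest q of the 42 in the authors' deposited table. NDUFB9, a subunit of the LYR motif family that binds an acyl carrier protein, had 202 FPKM in treated and 326 FPKM in untreated RLKO cells, and 81.5 FPKM in treated and 387 FPKM in untreated WT cells. NDUFB9 fell by 2.84 in WT with q = 0.0138 in the authors' deposited table. NDUFB3, a further single-span subunit, had 113 FPKM in treated and 269.8 FPKM in untreated RLKO cells, and 48.7 FPKM in treated and 306 FPKM in untreated WT cells. It did not pass although its change, -1.42 in RLKO and -3.23 in WT, was lower than that of NDUFB9, with q = 0.273 for WT in the authors' deposited table. The remaining 6, NDUFB4, NDUFB5, NDUFB6, NDUFB8, NDUFB10 and NDUFB11, lay between -1.17 and -0.33 in RLKO and between -3.12 and -1.64 in WT, and none passed. Their untreated levels ran from 64.9 to 517 FPKM in RLKO and from 98.3 to 625 FPKM in WT.

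NDUFAB1 is the mitochondrial acyl carrier protein, a complex I subunit that also serves fatty acid synthesis and iron-sulfur cluster assembly. It had 123 FPKM in treated and 153 FPKM in untreated RLKO cells, and 47.7 FPKM in treated and 197 FPKM in untreated WT cells. NDUFAB1 fell by 2.63 in WT with q = 0.0121 in the authors' deposited table, while its change in RLKO was -0.50. NDUFA4 carries a complex I name but was later placed in complex IV, cytochrome c oxidase. It had 119 FPKM in treated and 249 FPKM in untreated RLKO cells, and 52.0 FPKM in treated and 351 FPKM in untreated WT cells. NDUFA4 fell by 3.34 in WT with q = 0.0112 in the authors' deposited table, and its change in RLKO was -1.24.

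**Figure D2:**
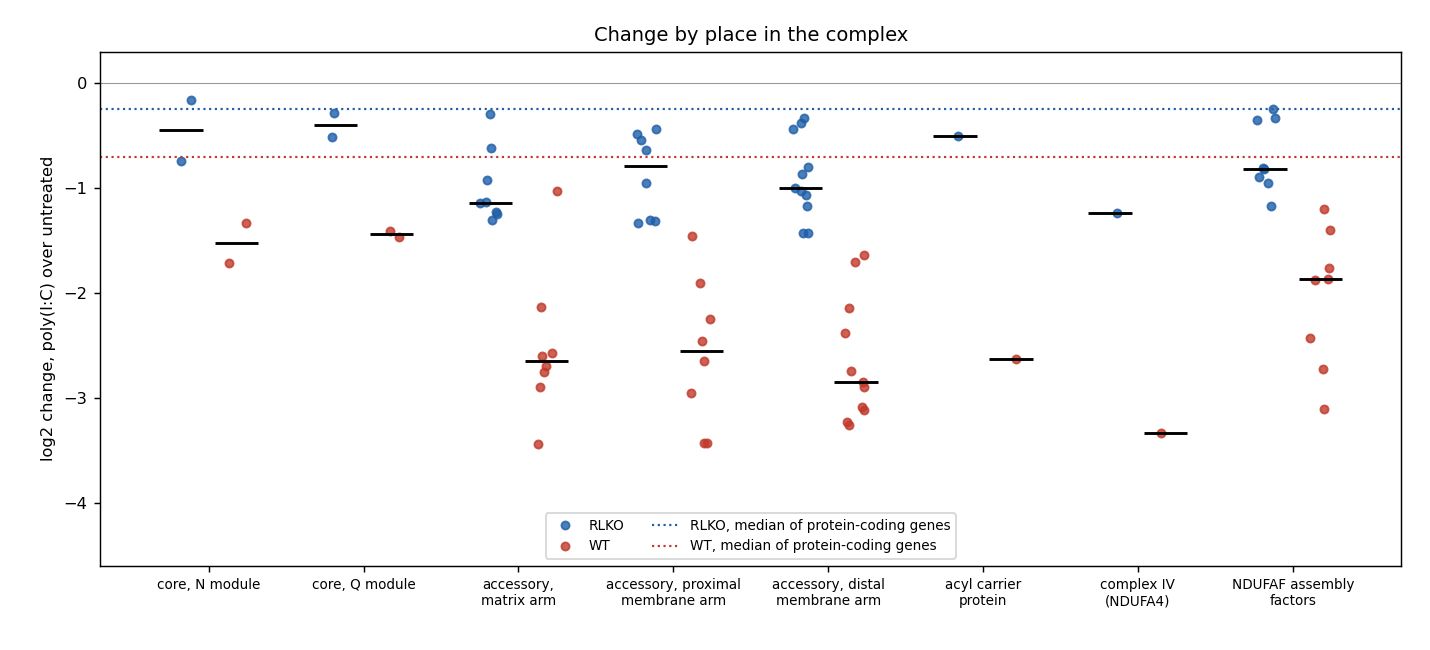
Log2 change on the spike-in scale (poly(I:C) over untreated) of 41 of the 42 genes, grouped by place in the complex, with RLKO in blue to the left and WT in red; black bars are medians of the genes drawn and dotted lines the medians of all protein-coding genes, -0.24 in RLKO and -0.70 in WT. The 4 core subunits drawn lie between -1.71 and -1.33 in WT, above most accessory subunits.

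The 8 NDUFAF genes had a median change of -0.81 in RLKO and -1.87 in WT, and 1 of them fell in WT. NDUFAF2 (chr5:60945129-61153037), a relative of NDUFA12 that acts late in matrix-arm assembly, had 46.6 FPKM in treated and 93.9 FPKM in untreated RLKO cells, and 17.5 FPKM in treated and 105 FPKM in untreated WT cells. It fell by 3.11 in WT, with q = 0.00944 in the authors' deposited table, and its change in RLKO was -1.17. NDUFA12, the subunit to which NDUFAF2 is related, was the more abundant in all 4 groups, with a change of -1.14 in RLKO and -2.75 in WT. The factor and the related subunit thus both fell in WT.

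NDUFAF3 and NDUFAF4 bind each other and help to build the Q module. NDUFAF3 had 36.5 FPKM in treated and 41.2 FPKM in untreated RLKO cells, and 18.3 FPKM in treated and 45.5 FPKM in untreated WT cells, with changes of -0.35 in RLKO and -1.86 in WT. NDUFAF4 had 46.0 FPKM in treated and 79.5 FPKM in untreated RLKO cells, and 31.6 FPKM in treated and 114 FPKM in untreated WT cells, with changes of -0.95 in RLKO and -2.43 in WT. The change of NDUFAF4 was the lower one of this pair in both genotypes, and neither passed the threshold.

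NDUFAF5 hydroxylates an arginine of NDUFS7, and NDUFAF8 is its partner. NDUFAF5 had 51.8 FPKM in treated and 57.7 FPKM in untreated RLKO cells, and 39.6 FPKM in treated and 69.4 FPKM in untreated WT cells, with changes of -0.33 in RLKO and -1.40 in WT. NDUFAF8, the most abundant of the 8, had 183 FPKM in treated and 301 FPKM in untreated RLKO cells, and 106 FPKM in treated and 463 FPKM in untreated WT cells, with changes of -0.89 in RLKO and -2.72 in WT and a WT q of 0.0511 in the authors' deposited table. Hence NDUFAF8 missed the threshold narrowly. NDUFAF5 and its substrate NDUFS7 were both among the 5 highest changes in each genotype.

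NDUFAF7, a protein methyltransferase, had 23.6 FPKM in treated and 37.4 FPKM in untreated RLKO cells, and 17.5 FPKM in treated and 40.6 FPKM in untreated WT cells, with changes of -0.81 in RLKO and -1.76 in WT. NDUFAF1, which takes part in building the membrane arm, was the least abundant of the 42 in untreated RLKO cells and had 9.51 FPKM in treated and 15.5 FPKM in untreated RLKO cells, and 6.16 FPKM in treated and 16.9 FPKM in untreated WT cells. Its changes were -0.81 in RLKO and -1.88 in WT. NDUFAF6, an early-acting factor, had 17.1 FPKM in treated and 18.1 FPKM in untreated RLKO cells, and 11.1 FPKM in treated and 17.6 FPKM in untreated WT cells. With -0.24 in RLKO and -1.20 in WT its change was the second highest of the 42 in both genotypes, and neither NDUFAF1, NDUFAF6 nor NDUFAF7 passed the threshold.

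Subunits and NDUFAF genes were then set side by side. The medians were -0.89 for 34 subunits and -0.81 for 8 NDUFAF genes in RLKO, and -2.62 for subunits and -1.87 for NDUFAF genes in WT. In WT 12 of 34 subunits fell and 1 of 8 NDUFAF genes did, against 3.09% of all protein-coding genes. Subunits were also the more abundant, with a median of 148 FPKM against 49.5 FPKM for NDUFAF genes in untreated RLKO cells. Among genes at 10 to 100 FPKM in untreated RLKO cells, 9 subunits had medians of -0.48 in RLKO and -1.71 in WT, and 7 NDUFAF genes had -0.81 in RLKO and -1.86 in WT. Within this band the subunits did not have the lower median in either genotype. In WT 0 of these 9 subunits and 1 of these 7 NDUFAF genes fell. The levels still differed there, with medians of 70.5 FPKM for subunits and 41.2 FPKM for NDUFAF genes in untreated RLKO cells. With 8 NDUFAF genes and no spread between samples, the difference was not tested.

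Core and accessory subunits were also compared within classes of level. At 10 to 100 FPKM in untreated RLKO cells, 5 accessory subunits had a median of -2.38 in WT and 4 core subunits had -1.56, but the sets overlapped: NDUFV3, an accessory subunit, lay above every core subunit at -1.03. At 100 to 300 FPKM, 16 accessory subunits lay between -3.44 and -1.64 in WT, and the 1 core subunit, NDUFS8, lay above all of them at -1.46. In WT 0 of 5 accessory and 0 of 4 core subunits fell in the lower class, and 7 of 16 and 0 of 1 in the higher. Of protein-coding genes, 1.61% at 10 to 30 FPKM, 4.55% at 30 to 100 FPKM and 14.3% at 100 to 300 FPKM were called lower in WT. In RLKO at 10 to 100 FPKM the order was not seen, with medians of -0.48 for accessory and -0.51 for core subunits. These sets are small and the difference was not tested.

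Across the 42 genes the changes in the genotypes ran in parallel. Pearson's correlation between the RLKO and the WT change was 0.86 and Spearman's 0.88, which describes 42 genes that are not independent replicates. The WT change minus the RLKO change was below 0 for all 42, with a median of -1.59 and a range of -2.26 to -0.73, and its median over protein-coding genes was -0.47; a negative value means that the RLKO change was the less negative one. NDUFB2 at -2.26, NDUFS4 at -2.14, NDUFAB1 at -2.13 and NDUFA1 at -2.13 had the most negative differences, and NDUFV3 at -0.73 the least. NDUFB11 had a change of -0.33 in RLKO and of -2.38 in WT, so that it was near the top in RLKO and near the middle in WT.

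**Figure D3:**
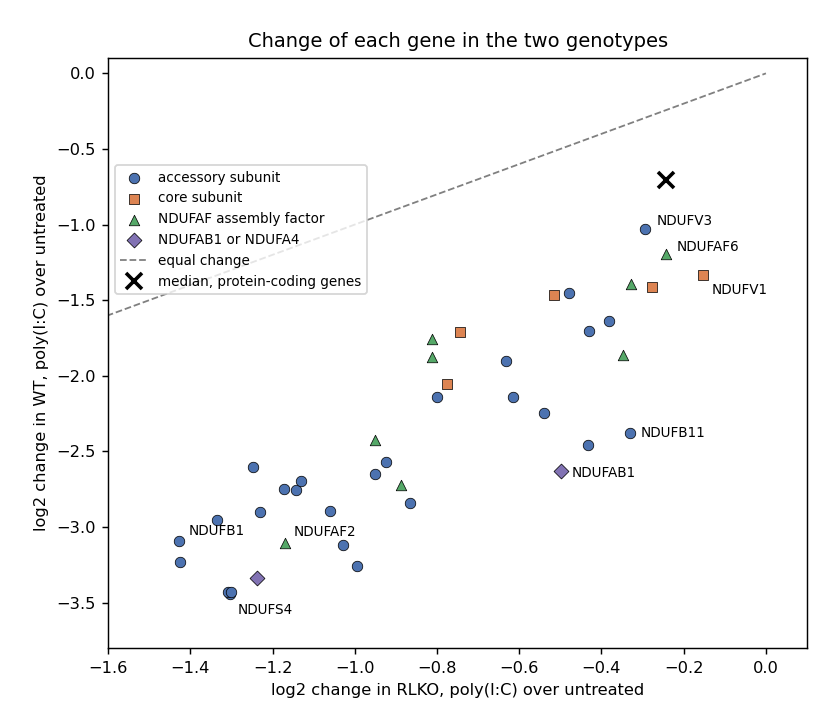
Log2 change in RLKO (x axis) and in WT (y axis) on the spike-in scale, 1 point per complex I gene, with the dashed line marking equal change and the cross the median of protein-coding genes. All 42 points lie below the dashed line, between -3.44 and -1.03 in WT and between -1.43 and -0.15 in RLKO.

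Treated RLKO cells had more FPKM than treated WT cells for 42 of 42 genes. Before treatment the order was the other way for most: untreated RLKO cells had fewer FPKM than untreated WT cells for 39 of 42 genes. The exceptions were NDUFA9, NDUFA10 and NDUFAF6. On the spike-in scale the log2 ratio of untreated WT over untreated RLKO had a median of 0.53, where a positive value means lower in RLKO, with a range of 0.14 to 0.92. Over protein-coding genes that median was 0.24. NDUFS5, NDUFAF8 and NDUFB2 had the highest ratios, at 0.92, 0.91 and 0.91. No test of untreated WT against untreated RLKO cells was analysed here.

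The order of the genes by level was largely kept. Spearman's correlation of the 42 levels in treated with those in untreated cells was 0.95 in RLKO and 0.85 in WT. The most abundant gene was 35.3 times the least abundant in treated and 39.4 times in untreated RLKO cells. In WT these spans were 35.1 times in treated and 47.2 times in untreated cells. The standard deviation of the log2 levels over the 42 genes was 1.16 in treated and 1.34 in untreated RLKO cells, and 1.05 in treated and 1.41 in untreated WT cells. Levels of complex I transcripts were thus closer to each other after treatment, more so in WT. The spread was not computed for other genes. Over 12181 protein-coding genes, too, abundant genes had the lower changes. Spearman's correlation of the change with the untreated level in the other genotype was -0.40 in RLKO and -0.63 in WT over those genes.

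The genes that were abundant before treatment had the lower changes. To keep the level apart from the change, genes were grouped by their level in the untreated cells of the other genotype. At 10 to 30 FPKM the 4 members there had a median of -1.30 in WT, against -0.78 for protein-coding genes of that class. At 30 to 100 FPKM the median was -1.96 for 12 members and -1.25 for the class. At 100 to 300 FPKM it was -2.65 for 19 members and -1.90 for the class, and at 300 to 1000 FPKM -2.90 for 7 members and -2.28 for the class. In WT 37 of 42 members lay below the median of their class, and in RLKO 30 of 42 did. From the lowest to the highest class, 0 of 4, 1 of 12, 9 of 19 and 3 of 7 members fell in WT, where the share of protein-coding genes called lower was 1.61%, 4.55%, 14.3% and 14.3%.

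**Figure D4:**
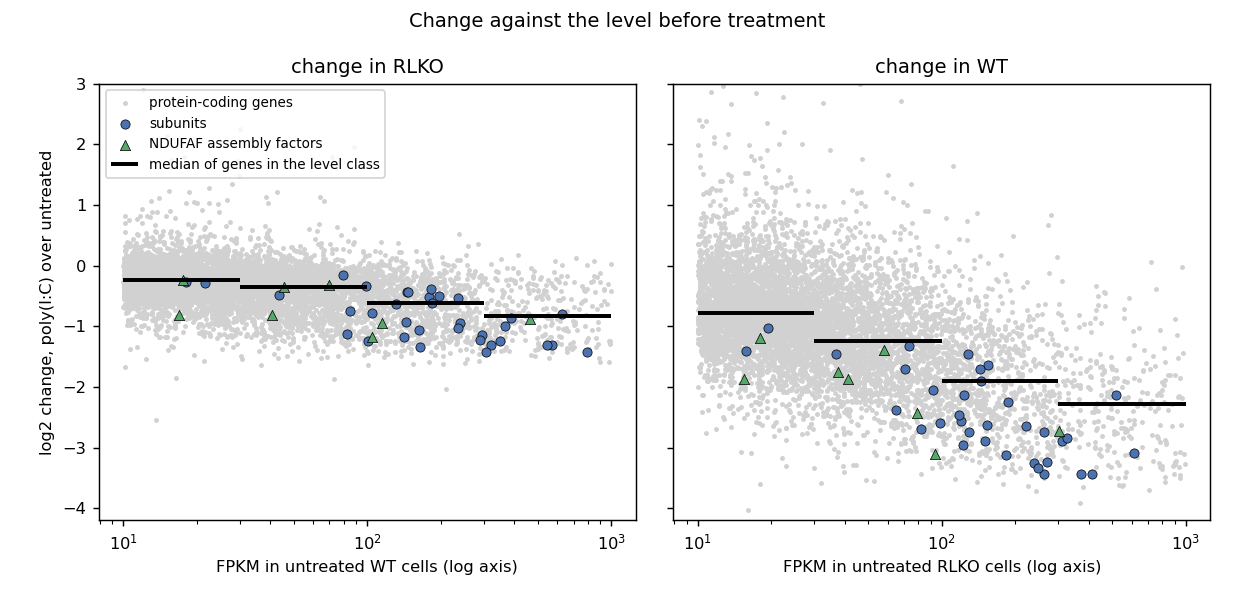
Log2 change on the spike-in scale in RLKO (left) and WT (right) against FPKM (log axis) in untreated cells of the other genotype, for subunits (blue), NDUFAF genes (green triangles) and all nuclear protein-coding genes at 10 to 1000 FPKM (grey, cut at the axis limits), with black bars for the median of each level class. In WT 37 of 42 complex I genes lie below the bar of their class.

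By the deposited values, complex I transcripts were short next to other mRNAs, and those of the subunits were long-lived. The deposited transcript length had a median of 1407 bases over the 42 members and 3623 bases over protein-coding genes. It need not be the length of a single transcript. For NDUFV2 it was 942 bases, with deposited untranslated regions of 116 and 752 bases and a coding sequence of 747 bases. The deposited half-life, which the authors took from another study of human cells and which ends at 24 h, was at that limit for 21 of 39 members with a value, or 53.8%, against 7.13% of protein-coding genes. It was at the limit for 20 of 33 subunits and for 1 of 6 NDUFAF genes, NDUFAF3. The median half-life of these 6 NDUFAF genes was 5.01 h, against 4 h over protein-coding genes. NDUFAF2 had a half-life of 2.35 h and NDUFB1 of 3.33 h, and both fell in WT. In WT 8 of 21 members at the limit fell, or 38.1%, and 2 of 9 members under 10 h, or 22.2%. Over protein-coding genes, 15.3% at the limit and 1.53% under 10 h were called lower in WT. Spearman's correlation of half-life with the WT change was -0.30 over 39 members and -0.51 over 9527 protein-coding genes. The part of half-life was not tested.

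Members with a shorter deposited length had the lower changes. Spearman's correlation of length with the WT change was 0.47 over the 42 members and 0.25 over protein-coding genes. At 100 to 300 FPKM in untreated RLKO cells, 9 members under 1000 bases had a median of -2.75 in WT, and 57 protein-coding genes of that level and length had -2.57. The members in that class with 1000 bases or more, 10 in number, had -2.56, against -1.86 for 780 protein-coding genes. At 300 to 1000 FPKM the medians were -3.43 for 3 short members, against -2.72 for short protein-coding genes, and -2.87 for 4 longer members, against -2.21 for longer protein-coding genes. The members had the lower median at both lengths in these level classes.

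The share of UU and UA in the coding sequence ran from 2.93% in NDUFB7 to 14.4% in NDUFAF1, with a median of 9.40% over the members and 7.94% over protein-coding genes. Its Spearman correlation with the change was -0.48 in RLKO and -0.42 in WT over the 34 subunits. Over the 8 NDUFAF genes it was 0.19 in RLKO and 0.38 in WT. Over all 42 members it was -0.28 in RLKO and -0.15 in WT. Across 12077 protein-coding genes it was -0.11 in RLKO and -0.18 in WT. These values describe genes that also differ in level, length and GC content, and the part of each was not tested.

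**Figure D5:**
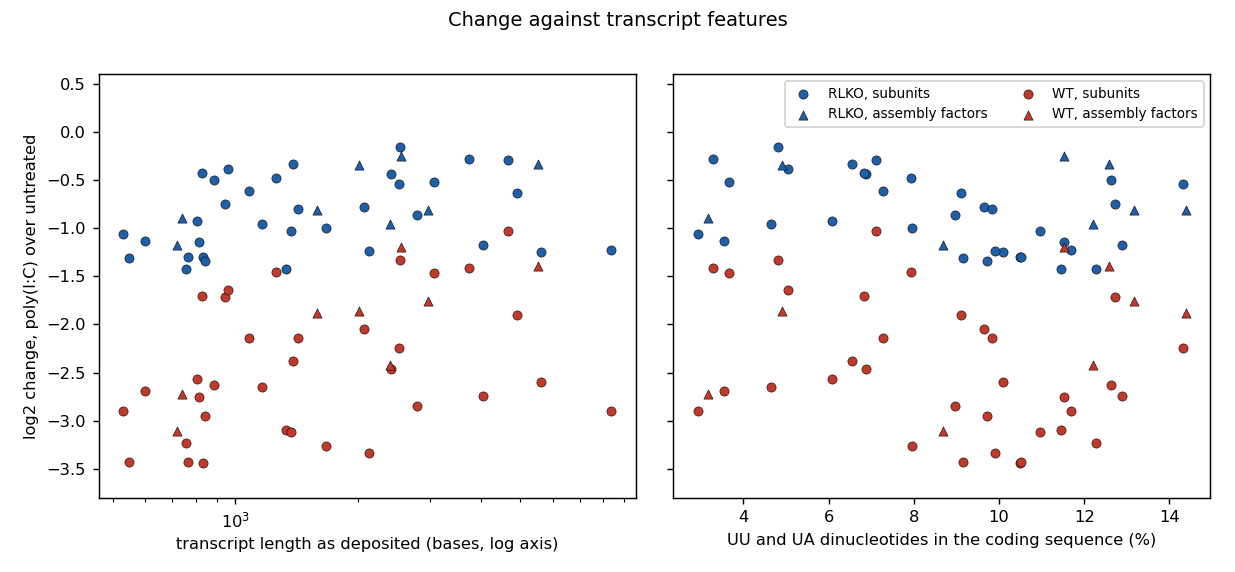
Log2 change on the spike-in scale of the 42 genes in RLKO (blue) and WT (red) against the deposited transcript length (left, log axis) and the share of UU and UA in the coding sequence (right); circles are subunits and triangles NDUFAF genes. Short transcripts lie lower in WT, and NDUFB7, at 2.93% UU and UA, lies at -2.89 in WT.

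Complex I also holds 7 subunits made from mitochondrial DNA, the proton-pumping core of the membrane arm, and their transcripts took another course. Their median change was -1.34 in RLKO and 1.14 in WT. All 7 had fewer FPKM in treated than in untreated RLKO cells and more FPKM in treated than in untreated WT cells. None passed the threshold in the authors' deposited table, in either direction; at an unadjusted p under 0.05 that table had 2 of 7 lower in RLKO, and 0 of 7 lower and 1 of 7, MT-ND5, higher in WT. MT-ND1 had 2034 FPKM in treated and 3079 FPKM in untreated RLKO cells, and 7417 FPKM in treated and 2199 FPKM in untreated WT cells. MT-ND5 had 1084 FPKM in treated and 1931 FPKM in untreated RLKO cells, and 3995 FPKM in treated and 1069 FPKM in untreated WT cells. On the spike-in scale MT-ND3 was the exception in WT, at -0.03. In treated WT cells the nuclear and the mitochondrial transcripts of the same enzyme thus lay on opposite sides of their untreated levels, apart from MT-ND3.

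The other 11 complex I assembly factors on the list, which carry no NDUFAF name, had medians of -0.34 in RLKO and -1.42 in WT, and 1 of 11 fell in WT. TIMMDC1, which takes part in membrane-arm assembly, had 79.7 FPKM in treated and 144 FPKM in untreated RLKO cells, and 39.0 FPKM in treated and 144 FPKM in untreated WT cells. It fell by 2.47 in WT with q = 0.0405 in the authors' deposited table. TMEM126B, a further membrane-arm factor, had a change of -1.24 in RLKO and -2.82 in WT. ACAD9, its partner there, had a change of -0.06 in RLKO and -0.45 in WT, and neither passed. Nuclear genes of complexes II to V, of which 39 of 40 were measured, had medians of -1.19 in RLKO and -3.03 in WT, and 12 of them fell in WT. Mitochondrial ribosomal protein genes, 75 of 78 measured, had medians of -0.72 in RLKO and -2.22 in WT with 15 falling in WT. Over protein-coding genes, 3.09% were called lower in WT. The groups differed in level: medians in untreated RLKO cells were 35.9 FPKM for these 11 factors, 351 FPKM for complexes II to V and 88.8 FPKM for ribosomal protein genes. The median changes of complex I lay between those of these other mitochondrial groups, and no test compared them.

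4 members could not be followed. NDUFS3, a core Q module subunit, and NDUFA6, a matrix-arm subunit of the LYR family, were listed at 0 in all 4 groups. NDUFS1, the large iron-sulfur subunit of the N module, was listed at no more than 0.00257 FPKM, and NDUFA3, of the proximal membrane arm, at no more than 0.0960 FPKM. EEF1B2, which overlaps NDUFS1, and TFPT, which overlaps NDUFA3, were listed at 0 as well. At NDUFS3 the overlapping KBTBD4 was listed at 0, while CELF1 had 47.0 to 57.9 FPKM and PTPMT1 20.8 to 46.2 FPKM over the 4 groups. An entry at or near 0 may be a failed estimate, and no change is given for these 4 members.

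Some counts of the others are uncertain because reads can be shared. A gene overlaps 29 of the 46 members, and for 9 a coding gene overlaps on the same strand; the sources used here do not give whether the libraries kept the strand. The largest such overlap was at NDUFA9, where 2 unnamed coding genes had 48.8 and 37.5 FPKM in untreated RLKO cells and 47.1 and 43.1 FPKM in untreated WT cells. Processed copies matter for NDUFA5 and NDUFV2. NDUFA5P11 had 62.8 FPKM in treated and 152 FPKM in untreated RLKO cells, and 28.8 FPKM in treated and 144 FPKM in untreated WT cells, more than NDUFA5 itself in each group. NDUFV2P1 had 43.7 FPKM in treated and 62.9 FPKM in untreated RLKO cells, and 22.6 FPKM in treated and 79.7 FPKM in untreated WT cells, so that reads of NDUFV2 and of the copy could not be separated with certainty. None of NDUFA5, NDUFA9, NDUFB4 and NDUFV2, the members most touched by this, was among the 13 that fell.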

How the data were processed

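Total RNA was depleted of rRNA and sequenced with ERCC spike-in RNA, per the labels. FastQC, Trimmomatic 0.32, TopHat2 2.0.6, Bowtie2 2.0.2, Cuffdiff 2.2.1 and GRCh38.p12 are named, without settings, per the submitters' processing notes. The authors' deposited table gave 1 FPKM value per group, over its 3 samples, and, per the file headers, the authors' p-value and q-value for treated against untreated cells of each genotype. GC content in percent, lengths and half-lives were deposited alongside. The labels call the samples independent without naming cultures or days, so the spread behind the p-values may be partly technical.

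The planned tests across samples were replaced by the authors' q-values, since 0 columns held a single sample. Rows needed 1 FPKM in a group. Each group was divided by its median ratio over 49 ERCC rows, and log2 changes used a pseudocount of 1. Gene IDs were matched to GENCODE release 29. Members, gene lists and level classes were chosen with earlier results of these data known. Named genes were the called members, core subunits, NDUFAF genes and the 5 lowest and 5 highest changes per genotype; a few genes are not reported here. The calculations were tested on simulated data, with Python 3.11. Depth is unknown, so no counting intervals are given.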

Additional observations from a re-analysis of the deposited data

How the results depend on the processing

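No paired analysis was possible because the table held 1 value per group, which also prevented leaving out a replicate. At an unadjusted p under 0.05 the counts of lower members were 5 in RLKO and 25 in WT, against 0 and 13 by q. At a q threshold of 0.1 they were 0 in RLKO and 16 in WT, and with the authors' p-values adjusted over the kept protein-coding rows 0 in RLKO and 10 in WT. With FPKM as deposited, the median change was -0.67 in RLKO and -1.91 in WT, the WT minus RLKO difference -1.16 and untreated WT over untreated RLKO 0.24. With median-ratio scaling over kept genes these were -0.55, -1.70, -1.08 and 0.26, and the changes of NDUFV1, NDUFS7 and NDUFAF6 in RLKO were then above 0. Without a filter, all 46 members gave a WT median of -2.40, and subunits minus NDUFAF genes came to -0.65 in WT and 0.024 in RLKO, which has the opposite sign to the -0.08 found with the filter. The changes in WT of the 13 members that fell stayed below 0 under all 4 scalings and pseudocounts tried. Leaving out NDUFA4 or, chosen after the data were seen, the 4 members with shared reads moved no median by more than 0.1 and gave 12 and 13 calls in WT.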

Other observations

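The table also held 59 NDUF pseudogene rows, of which 21 reached 1 FPKM. Of these, 3 were called in WT in the authors' deposited table. Among protein-coding genes, 3.09% were called lower and 4.27% higher there. NDUFB9P2, with 8.03 FPKM in treated and 12.6 FPKM in untreated RLKO cells, and 2.61 FPKM in treated and 17.6 FPKM in untreated WT cells, fell in WT with a change of -2.88 and q = 0.00180 in the authors' deposited table. It stood at 3.87% of the level of NDUFB9 in untreated RLKO cells and at 4.55% in untreated WT cells. The WT change of NDUFB9 itself was -2.84, and whether reads of NDUFB9 were assigned to the copy was not tested. NDUFA5P3 was called higher in WT with q = 0.00180 in the authors' deposited table, at 1.31 FPKM in treated cells and listed at 0 in untreated cells. With 0.0920 FPKM in treated and 0.0896 FPKM in untreated RLKO cells, it passed the filter only through the group where it was called higher. NDUFV2P1 fell in WT, with a change of -2.37 and q = 0.0168 in the authors' deposited table, while the value of NDUFV2 itself was -1.71. NDUFA3P2 had 3.19 FPKM in treated and 3.67 FPKM in untreated RLKO cells, and 13.6 FPKM in treated and 2.28 FPKM in untreated WT cells, with q = 0.514 for WT in the authors' deposited table. It lies on the opposite strand within PPP6R3, which had 65.5 FPKM in both treated and untreated WT cells. Among the members, NDUFB10, NDUFB8, NDUFS8, NDUFB4 and NDUFA10 were the 5 whose WT change lay above the median of their level class, by 0.00 to 0.44.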
